A study of Mus musculus with 6 samples.

Results

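The genes described here are the chemokines and the chemokine receptors of the mouse, read in whole lung after hemorrhagic shock (HS). They were taken from the read-count table as the protein-coding genes whose symbols begin as chemokine ligands or chemokine receptors do (*Ccl*, *Cxcl*, *Xcl*, *Cx3c*, *Ccr*, *Ccrl*, *Cxcr*, *Xcr1* and *Ackr*), together with *Pf4* and *Ppbp*. This gave 70 genes of the 54532 in the table, 46 for ligands and 24 for receptors, under 64 distinct symbols. The rule used names and gene types only and no measured value, though this family was chosen with earlier results of these data known. Lungs of 3 GRdim/dim mice were compared with lungs of 3 GR+/+ mice, 1 library per mouse. GRdim/dim mice carry a point mutation of *Nr3c1*, the gene of the glucocorticoid receptor (GR), in all cells of the body, which impairs the pairing of 2 receptor molecules on DNA, and the GR+/+ mice were their littermates on the same 129/SvEv and C57BL/6 background. All 6 mice were 10 to 16 weeks old, anesthetized and ventilated, bled to a mean arterial pressure of 35 mmHg for 1 h, re-transfused, and resuscitated for 4 h with colloid and norepinephrine, so no lung without HS enters the comparison. The question was how the lung transcriptome after HS differs when GR signaling is impaired. Each HS experiment was done on its own day, and gene counts cannot check a point mutation.

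Chemokines are small secreted proteins that guide leukocytes along a gradient. They bind G protein-coupled receptors on the leukocyte, and atypical receptors (the Ackr proteins) bind and remove them without the usual G protein signal. In the lung, epithelium, endothelium, macrophages and lymphoid cells make different chemokines, and glucocorticoids are known to act on several of these genes through GR and through inflammatory factors such as NF-kappaB and AP-1.

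Total counts ranged from 15687734 to 32082940 per library, and levels are given as CPM, the counts scaled to the library total after edgeR's TMM correction. Log2 fold changes are given ± a standard error, taken as the absolute log2 fold change divided by the square root of edgeR's F statistic. The surfactant gene *Sftpc*, which defines alveolar type 2 cells of the lung, had 9269.7 to 16394 CPM. Among 15 lists of cell type markers, each without any chemokine gene, B cell, T cell and NK cell genes had log2 fold changes above 0 for 12 of 12, 13 of 13 and 9 of 9 genes tested. For eosinophils, basophils and mast cells it was 4 of 4. The other lists lay on both sides, from 3 of 10 alveolar macrophage genes above 0 to 7 of 8 neutrophil genes. Summed B cell markers ranged from 37.0 to 87.4 CPM in GR+/+ and from 84.7 to 138 CPM in GRdim/dim libraries. Summed T cell markers ranged from 61.7 to 128 CPM and from 110 to 141 CPM, so both sums overlapped between genotypes. The summed neutrophil markers were highest in GRdim/dim replicate 1, at 1064 CPM, against a range of 254 to 482 CPM in the other 5 libraries. In bulk lung RNA, fewer cells of a type and less RNA per cell cannot be told apart. By the methods, 2 of 3 GR+/+ and 1 of 3 GRdim/dim mice were female, without naming which library is which.

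The promoters of 5 members are shown as examples with and without matches to the motifs named below. RefSeq sequences of GRCm38.p6, covering the 250 bases before the transcription start, were matched for 44 members whose RefSeq start lay within 50 bases of an annotated GENCODE start, and 35 of these were tested. The motifs searched on both strands were the glucocorticoid half-site AGAACA, the full glucocorticoid response element (that half-site and its reverse complement with any 3 bases between), the NF-kappaB motif, the GAS motif TTCNNNGAA, the interferon-stimulated response element (GAAA and again GAAA with any 2 bases between) and the AP-1 motif TGANTCA. A full element therefore also holds a half-site. Each sequence runs 5′ to 3′ and ends at the base before the start, with motif matches in capitals. *Ccl20* (chr1:83116516-83116765, plus strand) is the member with the largest difference below 0, *Cxcl1* (chr5:90890995-90891244, plus strand) and *Cxcl10* (chr5:92348890-92349139, minus strand) are inflammatory ligands, and *Ackr3* (chr1:90203730-90203979, plus strand) and *Cxcl15* (chr5:90794284-90794533, plus strand) are the members with the smallest adjusted p-values.
Ccl20: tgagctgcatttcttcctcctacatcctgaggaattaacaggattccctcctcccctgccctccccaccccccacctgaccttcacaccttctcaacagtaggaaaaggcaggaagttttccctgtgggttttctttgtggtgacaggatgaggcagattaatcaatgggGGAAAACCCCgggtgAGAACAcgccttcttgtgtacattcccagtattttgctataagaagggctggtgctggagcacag
Cxcl1: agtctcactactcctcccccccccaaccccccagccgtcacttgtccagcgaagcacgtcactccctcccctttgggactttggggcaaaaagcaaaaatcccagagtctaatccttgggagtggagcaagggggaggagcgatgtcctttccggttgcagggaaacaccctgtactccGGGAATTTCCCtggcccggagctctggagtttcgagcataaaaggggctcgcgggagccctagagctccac
Cxcl10: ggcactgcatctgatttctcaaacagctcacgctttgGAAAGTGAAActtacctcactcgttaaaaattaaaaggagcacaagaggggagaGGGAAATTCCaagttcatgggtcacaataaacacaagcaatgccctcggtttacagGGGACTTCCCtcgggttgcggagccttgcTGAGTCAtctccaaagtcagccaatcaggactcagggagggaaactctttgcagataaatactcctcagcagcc
Ackr3: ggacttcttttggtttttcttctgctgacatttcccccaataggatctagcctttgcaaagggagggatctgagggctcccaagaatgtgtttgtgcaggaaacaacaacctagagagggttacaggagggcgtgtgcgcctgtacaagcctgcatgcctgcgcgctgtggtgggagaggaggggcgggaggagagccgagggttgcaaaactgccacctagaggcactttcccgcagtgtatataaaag
Cxcl15: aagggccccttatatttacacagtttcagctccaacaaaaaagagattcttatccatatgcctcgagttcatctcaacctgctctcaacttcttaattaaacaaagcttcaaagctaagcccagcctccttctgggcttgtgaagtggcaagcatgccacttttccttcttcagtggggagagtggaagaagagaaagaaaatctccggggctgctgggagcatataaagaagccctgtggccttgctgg

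The *Ccl20* promoter held an NF-kappaB match from 80 to 71 bases before the start and a glucocorticoid half-site from 65 to 60 bases before it. Among the 35 tested members with a matched promoter, *Ccl20* was the one with both. *Cxcl1* held 2 overlapping NF-kappaB matches between 71 and 61 bases before the start. *Cxcl10* held NF-kappaB matches at 159 to 150 and 103 to 94 bases, an interferon-stimulated response element at 213 to 204 bases and an AP-1 match at 74 to 68 bases. None of the letters searched was found in these 250 bases of *Ackr3* or *Cxcl15*. Over the tested members, 7 of 35 promoters held the NF-kappaB motif (20%), against 3.92% of all 32536 RefSeq promoters, and 6 of 35 held the half-site (17.1%), against 16% of all promoters. The full glucocorticoid response element was found in 0 of 35, against 0.00922%. Only exact matches counted, and at so low a share of all promoters 0 of 35 says nothing particular about these members. The 7 tested members with an NF-kappaB match had log2 fold changes on both sides of 0, namely -1.46 for *Ccl20*, -0.53 for *Ackr2*, -0.48 for *Cxcl1*, 0.16 for *Ccrl2*, 0.17 for *Cxcl10*, 0.39 for *Cxcl2* and 0.98 for *Ccl9*. A match describes letters in this window and not a bound site.

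Of the 70 members, 48 had enough counts to be tested, 28 ligands and 20 receptors. After HS, 38 of the 48 had a log2 fold change above 0 in GRdim/dim lungs and 10 below 0. The median log2 fold change of the 48 was 0.42, against 0.0064 over all 16568 genes tested. With edgeR's quasi-likelihood test and Benjamini-Hochberg adjustment over all genes tested, 0 members passed an adjusted p under 0.05 with a log2 fold change beyond 0.5, where 0.169% of all genes did (0.0724% higher and 0.0966% lower), and the smallest adjusted p was 0.0961. At an unadjusted p under 0.05, 10 members were higher in GRdim/dim lungs (20.8% of those tested, against 4.91% of all genes) and 2 were lower (4.17%, against 4.68%). DESeq2, the tool used in the study, called 6 of the 49 members to which it gave an adjusted p, against 1.70% of all genes. These were *Cxcl15*, *Ackr3*, *Pf4*, *Cxcl13* and *Ccr7* on the higher side and *Ccl20* on the lower side (background shares 0.817% and 0.879%). For 9 members every GRdim/dim library lay above every GR+/+ library (18.8%, against 7.77% of all genes), and for 3 every one lay below (6.25%, against 7.05%). The shares on the lower side were thus near those of all genes. When low counts were not filtered, edgeR called 9 members of 58 (against 1.66% of all genes in that fit), so the count depended on the filter.

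**Figure D1:**
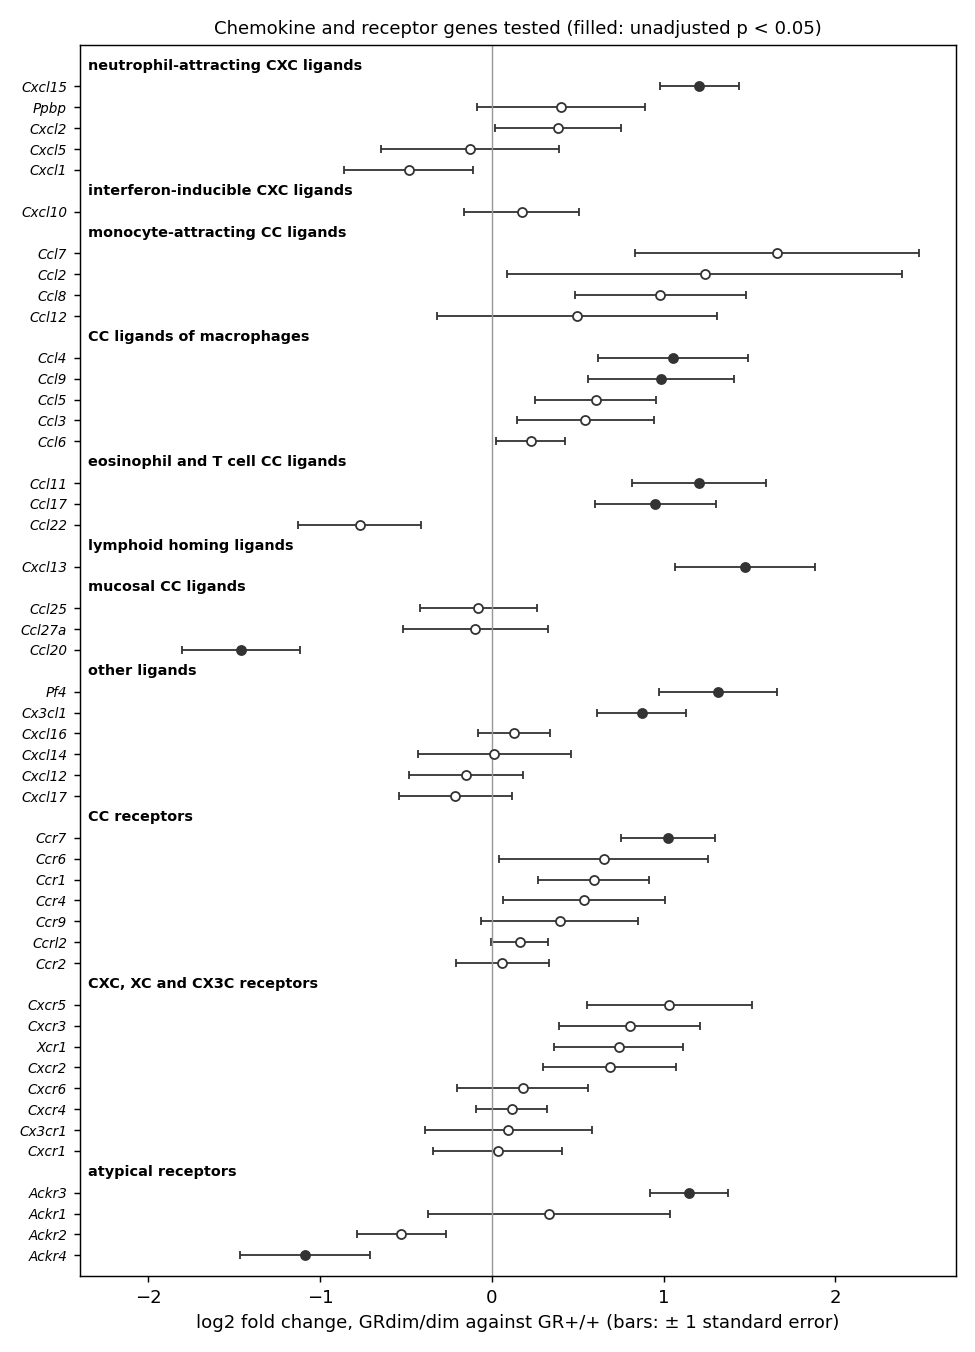
Log2 fold change of GRdim/dim against GR+/+ lungs for members tested (x axis), grouped by role. Bars show 1 standard error derived from edgeR's F statistic, and filled points have an unadjusted p under 0.05. Filled points lie to the right of 0 for 10 members and to the left for *Ccl20* and *Ackr4*.

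*Cxcl15* (lungkine, a CXC chemokine of lung epithelium that attracts neutrophils into the airspace; chr5:90794534-90803067) was the most abundant chemokine RNA, in CPM and in CPM per kb of gene. GR+/+ lungs held 516, 399 and 589 CPM in replicates 1 to 3, and GRdim/dim lungs 1259.9, 1319.6 and 898 CPM. All 3 GRdim/dim libraries lay above all 3 GR+/+ libraries. The means were 501 ± 95.8 and 1159 ± 228 CPM (SD, n = 3 each), the log2 fold change was 1.21 ± 0.23, and the adjusted p was 0.0961 from edgeR and 5.67e-05 from DESeq2. Leaving out any 1 library kept the log2 fold change between 1.07 and 1.36. *Cxcl15* supplied 35.9 to 47.9% of all ligand CPM in GR+/+ and 48.8 to 63.8% in GRdim/dim libraries. The sum over all ligands was 1111 to 1295 CPM in GR+/+ and 1838 to 2135 CPM in GRdim/dim lungs. Without *Cxcl15* the sum was 640.4 to 779 CPM against 748 to 941 CPM, so the groups then overlapped. The 6 markers of alveolar type 2 cells gave 15419 to 22539 CPM in GR+/+ and 15267 to 23708 CPM in GRdim/dim libraries, 0 of 6 had an unadjusted p under 0.05, and the groups overlapped. Of 5 club cell markers, 1 was lower at that threshold and 0 were higher, while 4 of the 5 had log2 fold changes above 0. Their sums overlapped, at 16534 to 31498 CPM in GR+/+ and 22306 to 28703 CPM in GRdim/dim libraries. The part of either cell type in the level of *Cxcl15* was not tested.

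The other neutrophil-attracting CXC ligands were low and overlapped between genotypes. *Cxcl1* (KC), a main inducible neutrophil attractant, stood at 4.54, 5.10 and 2.60 CPM in GR+/+ and at 3.77, 2.04 and 2.91 CPM in GRdim/dim lungs. *Cxcl2* (MIP-2) stood at 1.49, 1.92 and 2.48 against 3.13, 2.62 and 2.0 CPM. GR+/+ and GRdim/dim libraries were interleaved for both. Their log2 fold changes were -0.48 ± 0.38 and 0.39 ± 0.37, with *Cxcl5*, the epithelial ligand of the same receptor, at -0.13 ± 0.52 and *Ppbp*, a platelet-stored ligand, at 0.40 ± 0.49. *Cxcr2*, the neutrophil receptor of these ligands, stood at 33.0, 22.2 and 18.2 CPM in GR+/+ and at 67.4, 26.0 and 24.5 CPM in GRdim/dim lungs. GRdim/dim replicate 1 alone stood high, the replicate with the most neutrophil marker RNA, and the groups overlapped (log2 fold change 0.69 ± 0.39, edgeR adjusted p = 0.636). *Cxcr1*, the second receptor of this kind, had a log2 fold change of 0.03 ± 0.38. Of the 8 neutrophil markers tested, 3 had an unadjusted p under 0.05, all higher, and their part in these levels was not tested.

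*Ackr3* (chr1:90203980-90216751), the atypical receptor that takes up and degrades CXCL12, had the smallest adjusted p among the receptors. Its level was 32.0, 53.2 and 39.0 CPM in GR+/+ and 83.0, 78.8 and 114 CPM in GRdim/dim lungs. The genotypes did not overlap. The log2 fold change was 1.15 ± 0.23, and the adjusted p was 0.103 in edgeR and 0.000989 in DESeq2. Leaving out 1 library at a time gave log2 fold changes of 0.97 to 1.37. Its ligand *Cxcl12*, the stromal chemokine that keeps CXCR4 cells in place, stood at 99.0, 146 and 73.7 against 56.4, 142 and 88.7 CPM. *Cxcr4*, the signaling receptor of CXCL12, stood at 77.1, 73.2 and 54.0 against 62.6, 92.4 and 65.9 CPM. Neither ligand nor signaling receptor separated by genotype, with log2 fold changes of -0.15 ± 0.33 and 0.11 ± 0.21. *Ackr3* was thus the 1 member of this axis with an unadjusted p under 0.05. Of the endothelial markers, 3 of 9 capillary genes were higher and 1 was lower, 1 of 6 venous genes was lower and 1 of 5 lymphatic genes was higher at an unadjusted p under 0.05, and of 7 fibroblast markers 0 were either. Their part in these levels was not tested.

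Of the other atypical receptors, *Ackr4* and *Ackr2* lay below 0. *Ackr4*, which removes CCL19, CCL21 and CCL25, stood at 5.32, 6.77 and 4.54 CPM in GR+/+ and at 1.99, 3.99 and 1.74 CPM in GRdim/dim lungs. Every GRdim/dim library lay below every GR+/+ library, at a log2 fold change of -1.09 ± 0.38 (adjusted p = 0.405 in edgeR and 0.190 in DESeq2). *Acad11* overlaps 479 exon bases of *Ackr4* (8.90%) on the opposite strand, and without stated strand use reads of the 2 genes cannot be told apart there. *Ackr2*, a scavenger of inflammatory CC chemokines, stood at 93.5, 96.2 and 45.4 against 53.5, 57.5 and 51.9 CPM. GR+/+ replicate 3 lay below all GRdim/dim libraries and the groups overlapped (log2 fold change -0.53 ± 0.26, edgeR adjusted p = 0.568). *Ackr1*, the chemokine-binding receptor of venules and red cells, was low, at 0.208 to 2.39 CPM with a log2 fold change of 0.33 ± 0.70, and shared 361 exon bases with *Cadm3* on the same strand.

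*Ccl20* (MIP-3 alpha, an epithelial chemokine for CCR6 cells; chr1:83116766-83119167) showed the largest difference below 0. GR+/+ lungs held 15.9, 13.7 and 16.9 CPM and GRdim/dim lungs 9.06, 4.03 and 3.81 CPM. No GRdim/dim library reached the lowest GR+/+ library, and GRdim/dim replicate 1 stood above the other two. The log2 fold change was -1.46 ± 0.34, and the adjusted p was 0.185 in edgeR and 0.00305 in DESeq2. Without GRdim/dim replicate 1 the log2 fold change was -1.97, and the edgeR adjusted p became 0.0375. Without any other 1 library it was -1.54 to -1.25, with an edgeR adjusted p of 0.282 to 0.391. *Ccr6*, its receptor on B cells and some T cells, stood at 1.14, 0.779 and 0.318 CPM in GR+/+ and at 1.40, 1.5 and 0.452 CPM in GRdim/dim lungs, on 7 to 36 counts per library. GRdim/dim replicate 3 lay within the GR+/+ range, and the log2 fold change was 0.65 ± 0.61. The other mucosal ligands tested were close to 0, *Ccl25*, a ligand of gut-homing T cells, at -0.08 ± 0.34 and *Ccl27a*, a skin and epithelial ligand, at -0.10 ± 0.42.

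**Figure D2:**
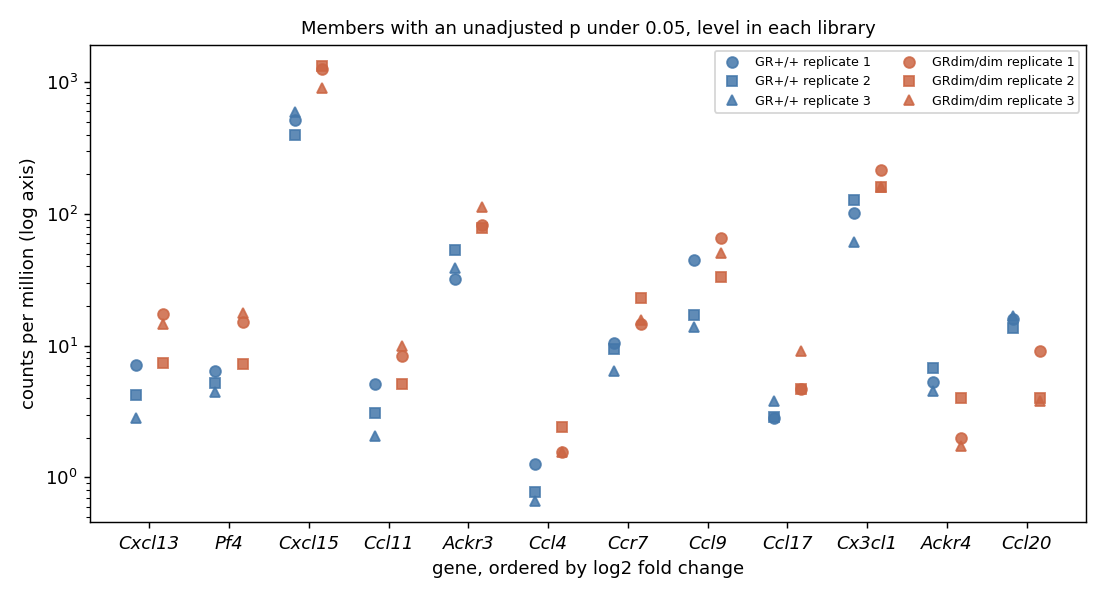
CPM (log axis) of the 12 members with an unadjusted p under 0.05 in each of the 6 libraries, ordered by log2 fold change; colors give the genotype and symbols the replicate. The genotypes are apart for each gene except *Ccl9*, where GR+/+ replicate 1 lies above GRdim/dim replicate 2.

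Of the genes of lymphoid homing, *Cxcl13* and *Ccr7* had levels apart between genotypes. *Cxcl13*, the chemokine of B cell follicles, stood at 7.17, 4.20 and 2.83 CPM in GR+/+ and at 17.4, 7.35 and 14.5 CPM in GRdim/dim lungs. The lowest GRdim/dim library was just above the highest GR+/+ library. Its log2 fold change of 1.48 ± 0.41 was the largest among members with an unadjusted p under 0.05, and the adjusted p was 0.275 in edgeR and 0.0148 in DESeq2. *Cxcr5*, its receptor on B cells, stood at 1.97, 2.64 and 1.24 against 2.32, 6.73 and 2.71 CPM, with GRdim/dim replicate 2 alone high and the groups overlapping (log2 fold change 1.03 ± 0.48, edgeR adjusted p = 0.538). *Bcl9l*, with 1355 to 3313 counts per library, overlaps 110 exon bases of *Cxcr5* (3.30%) on the opposite strand. *Ccr7*, the receptor that brings dendritic cells and T cells to lymph nodes, stood at 10.5, 9.35 and 6.42 CPM in GR+/+ and at 14.7, 22.9 and 15.7 CPM in GRdim/dim lungs. All GRdim/dim libraries were higher than all GR+/+ libraries, at a log2 fold change of 1.03 ± 0.28 (adjusted p = 0.253 in edgeR and 0.0329 in DESeq2). Of the markers tested, 7 of 12 for B cells, 3 of 13 for T cells, 5 of 9 for NK cells and 3 of 8 for dendritic cells were also higher at an unadjusted p under 0.05, and their part in these levels was not tested.

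The ligands of CCR7 could not be read. All rows of *Ccl19*, *Ccl21a*, *Ccl21b* and *Ccl21c*, 8 in number, had 0 counts in every library, which allows up to 0.0953 to 0.194 CPM per library at 3 counts. These genes lie in copies, and the value of 0 is therefore uncertain. Of the 31-base windows of the transcript, 80.6% for *Ccl21a*, 100% for *Ccl21b* and 58.8% for *Ccl19* also occurred in another gene. Entries on scaffolds outside the chromosomes were not in the transcripts searched, so the shares below 100% are lower bounds. The coding sequences of *Ccl21a* and *Ccl21b*, 402 bases each, were 99.5% identical and differed by T84A and C194T, counted from the first coding base of *Ccl21a* with the base of *Ccl21a* first. *Gm10591*, *Gm13304* and *Gm21541* carried the same 2 substitutions and also had 0 counts. Of the copies that share sequence with *Ccl19*, *Gm2564* and *Ccl19-ps3* had 0 counts, while the pseudogenes *Gm12407* and *Ccl19-ps1* had 55 and 34 counts over the 6 libraries. The stretch from coding base 54 to 114 is shown because it holds the first of the 2 coding bases at which the copies differ, T84A, in capitals.
Ccl21a: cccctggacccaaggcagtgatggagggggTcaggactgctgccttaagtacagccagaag
Ccl21b: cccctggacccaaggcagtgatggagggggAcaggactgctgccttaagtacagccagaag

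*Pf4* (platelet factor 4, stored in platelet granules and also made by some macrophages; chr5:90772435-90773383) stood at 6.45, 5.22 and 4.48 CPM in GR+/+ and at 15.2, 7.27 and 17.8 CPM in GRdim/dim lungs. The groups did not overlap, and GRdim/dim replicate 2 was nearest to the GR+/+ range. The log2 fold change was 1.32 ± 0.34, and the adjusted p was 0.244 in edgeR and 0.0148 in DESeq2. The neighboring gene *Ppbp*, which platelets store as well, overlapped between genotypes, at 1.14, 3.30 and 4.0 against 4.10, 5.11 and 2.0 CPM. Of 10 platelet markers, 9 were tested and 0 had an unadjusted p under 0.05. Their sum was 32.4 to 58.0 CPM in GR+/+ and 24.8 to 46.3 CPM in GRdim/dim libraries, with *Gp1bb* at 0 in all 6.

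*Cx3cl1* (fractalkine, held on the endothelial and epithelial surface and released by ADAM10 and ADAM17; chr8:94772009-94782427) stood at 102, 128 and 61.3 CPM in GR+/+ and at 214, 160.1 and 159 CPM in GRdim/dim lungs. Every GRdim/dim library was above every GR+/+ library. The log2 fold change was 0.87 ± 0.26, and the adjusted p was 0.303 in edgeR and 0.0666 in DESeq2, so neither tool called it. *Cx3cr1*, its receptor on monocytes and macrophages, overlapped widely, at 3.76, 8.63 and 3.81 against 9.38, 5.36 and 2.45 CPM (log2 fold change 0.10 ± 0.49). *Adam10* and *Adam17* had log2 fold changes of 0.03 ± 0.19 and 0.02 ± 0.18. The other epithelial and stromal ligands were abundant and near 0. *Cxcl17*, a mucosal chemokine, stood at 58.6, 40.2 and 79.7 CPM in GR+/+ and at 48.6, 30.6 and 75.0 CPM in GRdim/dim lungs. The groups overlapped, at a log2 fold change of -0.21 ± 0.33. *Cxcl14*, a chemokine of epithelium and stroma, had a log2 fold change of 0.01 ± 0.44 and *Cxcl16*, which binds CXCR6, of 0.13 ± 0.21, with levels from 44.6 to 166 and from 91.3 to 149 CPM over the 6 libraries. *Zmynd15* overlaps 552 exon bases of *Cxcl16* on the opposite strand.

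The CC ligands made mostly by macrophages and lymphocytes all had log2 fold changes above 0. *Ccl9* (MIP-1 gamma), a ligand of CCR1, stood at 44.7, 17 and 13.8 CPM in GR+/+ and at 65.6, 33.2 and 50.2 CPM in GRdim/dim lungs. GR+/+ replicate 1 stood high and overlapped the GRdim/dim range (log2 fold change 0.98 ± 0.42, edgeR adjusted p = 0.50). Without that library the log2 fold change of *Ccl9* was 1.69 (edgeR adjusted p = 0.129), and without any other 1 library it was 0.69 to 1.21. *Ccl4* (MIP-1 beta), a macrophage and lymphocyte ligand, was low but did not overlap, at 1.25, 0.779 and 0.667 against 1.56, 2.41 and 1.55 CPM. Its log2 fold change was 1.05 ± 0.44, with an adjusted p of 0.483 in edgeR, and it rested on 13 to 58 counts per library. *Ccl5* (RANTES), *Ccl3* (MIP-1 alpha) and *Ccl6* had log2 fold changes of 0.61 ± 0.35, 0.54 ± 0.40 and 0.23 ± 0.20, all with overlapping groups. *Ccl6*, which also binds CCR1, was the most abundant of them, at 146, 87.8 and 137 CPM in GR+/+ and 152, 139 and 143 CPM in GRdim/dim lungs. GR+/+ replicate 2 stood low. Of 10 alveolar macrophage markers, 1 was higher (*Car4*) and 1 lower (*Chil3*) at an unadjusted p under 0.05. *Car4* is also counted among the capillary markers and *Chil3* among the classical monocyte markers. *Ccr1*, a receptor of several of these ligands, stood at 23.0, 17.8 and 14 against 43.0, 19.5 and 20.1 CPM. GRdim/dim replicate 1 alone stood high and the groups overlapped (log2 fold change 0.59 ± 0.32).

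Ligands of eosinophils and T helper cells lay on both sides of 0. *Ccl11* (eotaxin), the ligand of CCR3, stood at 5.08, 3.06 and 2.06 CPM in GR+/+ and at 8.36, 5.11 and 9.95 CPM in GRdim/dim lungs. The groups were apart by little, 5.08 against 5.11 CPM, and the log2 fold change was 1.21 ± 0.39 (adjusted p = 0.360 in edgeR and 0.0953 in DESeq2). *Ccr3*, the eosinophil receptor, had 23 counts in all and was not tested. Of 10 markers of eosinophils, basophils and mast cells, 4 passed the filter and 1 was higher at an unadjusted p under 0.05. *Ccl17* and *Ccl22*, which both bind CCR4, had opposite signs. *Ccl17* stood at 2.81, 2.88 and 3.81 against 4.69, 4.69 and 9.17 CPM, and *Ccl22* at 2.27, 3.30 and 2.67 against 1.40, 1.5 and 1.94 CPM. Neither overlapped between genotypes, with log2 fold changes of 0.95 ± 0.35 (edgeR adjusted p = 0.432) and -0.77 ± 0.36 (edgeR adjusted p = 0.537). GRdim/dim replicate 3 was the highest for *Ccl17*, and without it the log2 fold change of *Ccl17* was 0.56 (edgeR adjusted p = 0.542). The difference between the 2 ligands was not tested. *Ccr4* stood at 0.717, 0.779 and 0.572 against 0.755, 1.41 and 0.775 CPM, with overlapping groups and a log2 fold change of 0.54 ± 0.47.

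The monocyte-attracting ligands were split among the GRdim/dim lungs. *Ccl2* (MCP-1; chr11:82035571-82037453) had 32, 39 and 30 counts in GR+/+ and 86, 0 and 118 counts in GRdim/dim libraries, which is 1.91, 2.34 and 0.953 against 4.64, 0 and 7.62 CPM. GRdim/dim replicates 1 and 3 lay above every GR+/+ library and replicate 2 below, where a count of 0 allows up to 0.125 CPM. The log2 fold change was 1.24 ± 1.15, with an adjusted p of 0.813 in edgeR. *Ccl7* (MCP-3), which lies beside it and also binds CCR2, had the same order among GRdim/dim libraries, at 1.97, 1.56 and 1.05 against 5.93, 0.332 and 8.20 CPM (log2 fold change 1.66 ± 0.83, edgeR adjusted p = 0.578). *Ccl12* (MCP-5) stood at 0.657, 2.40 and 0.445 against 3.02, 0.291 and 1.55 CPM, again lowest in GRdim/dim replicate 2. *Ccl8* (MCP-2) did not share this order, at 0.657, 1.20 and 0.635 against 1.02, 1.37 and 2.52 CPM. Without GRdim/dim replicate 2 the log2 fold change of *Ccl2* was 1.84 (edgeR adjusted p = 0.282), without GRdim/dim replicate 3 it was 0.42, and with a covariate for sex-linked expression it was -0.85. *Ccr2*, the receptor of classical monocytes, overlapped between genotypes, at 83.4, 110.1 and 55.7 against 116, 67.6 and 76.6 CPM (log2 fold change 0.06 ± 0.27). Of 8 classical monocyte markers tested, 4 were higher and 1 lower at an unadjusted p under 0.05.

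The interferon-inducible ligands of CXCR3 were low. *Cxcl9* (MIG) did not pass edgeR's filter and had 4, 5 and 10 counts in GR+/+ and 36, 33 and 3 counts in GRdim/dim libraries, so GRdim/dim replicates 1 and 2 were high and replicate 3 was not. DESeq2 gave it a log2 fold change of 2.03 and an adjusted p of 0.310. *Cxcl10* (IP-10) stood at 3.88, 3.78 and 3.21 against 5.66, 2.91 and 3.68 CPM, and the groups overlapped (log2 fold change 0.17 ± 0.34). *Cxcr3*, their receptor on activated T cells and NK cells, stood at 1.85, 3.66 and 1.37 against 3.29, 4.49 and 4.07 CPM, with an overlap of 1 GR+/+ library (log2 fold change 0.80 ± 0.41, edgeR adjusted p = 0.582). *Art3*, with 251 to 489 counts per library, overlaps 133 exon bases of *Cxcl10* (5.91%) on the opposite strand. Of 12 tested genes of interferon signaling, 2 were higher at an unadjusted p under 0.05. *Irf7*, an interferon-induced regulator, was one of them, with a log2 fold change of 1.25 ± 0.34 (edgeR adjusted p = 0.253). *Ifng* itself did not pass the filter.

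**Figure D3:**
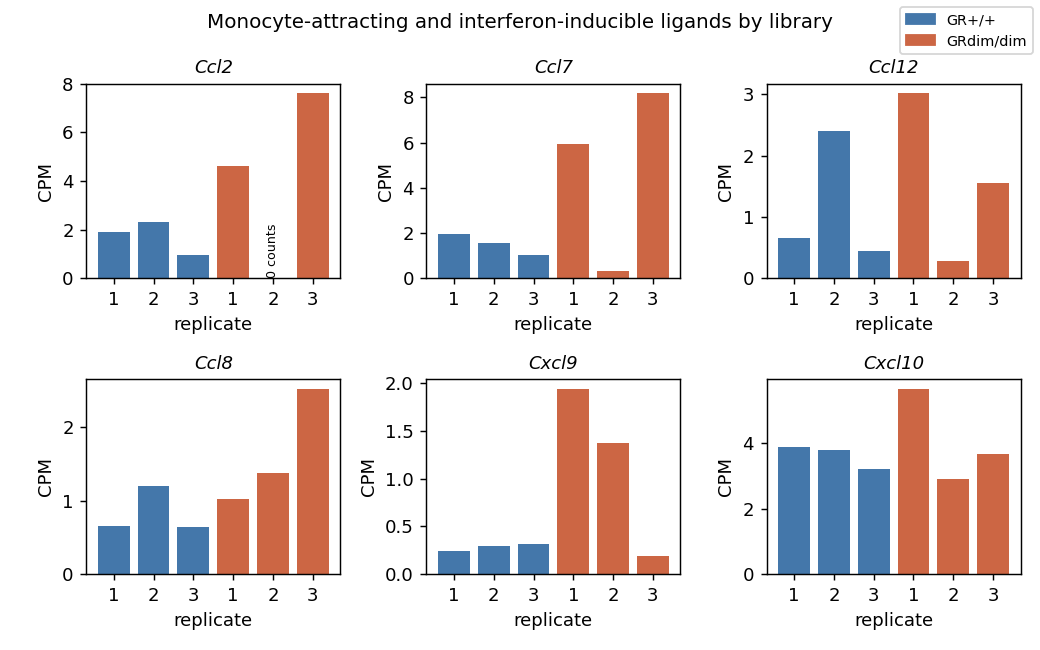
CPM of *Ccl2*, *Ccl7*, *Ccl12*, *Ccl8*, *Cxcl9* and *Cxcl10* in each library (bars, y axes starting at 0), GR+/+ in blue and GRdim/dim in red. GRdim/dim replicate 2 has 0 counts of *Ccl2* and the lowest bar for *Ccl7*, *Ccl12* and *Cxcl10*, and replicate 3 is low for *Cxcl9*.

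Chemokine genes lie in clusters, and neighbors were compared side by side. On chromosome 11, all 5 tested genes between 82035571 and 82305690 (*Ccl2*, *Ccl7*, *Ccl11*, *Ccl12* and *Ccl8*) and all 5 between 83525778 and 83664683 (*Ccl5*, *Ccl9*, *Ccl6*, *Ccl3* and *Ccl4*) had log2 fold changes above 0, from 0.49 to 1.66 and from 0.23 to 1.05. On chromosome 9, the 6 tested receptor genes between 123678439 and 124147699 were all above 0 as well, from 0.06 to 0.74, and 0 of 6 had an unadjusted p under 0.05. The cluster on chromosome 5 between 90759360 and 90905938 was mixed, with 4 of 6 genes above 0. *Pf4* and *Cxcl15* there were the highest at 1.32 and 1.21, and *Cxcl1* the lowest at -0.48. On chromosome 8, *Ccl22* was below 0 while its neighbors *Cx3cl1* and *Ccl17*, within the stretch from 94745590 to 94812036, were above it. For comparison, 38 of all 48 tested members were above 0.

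**Figure D4:**
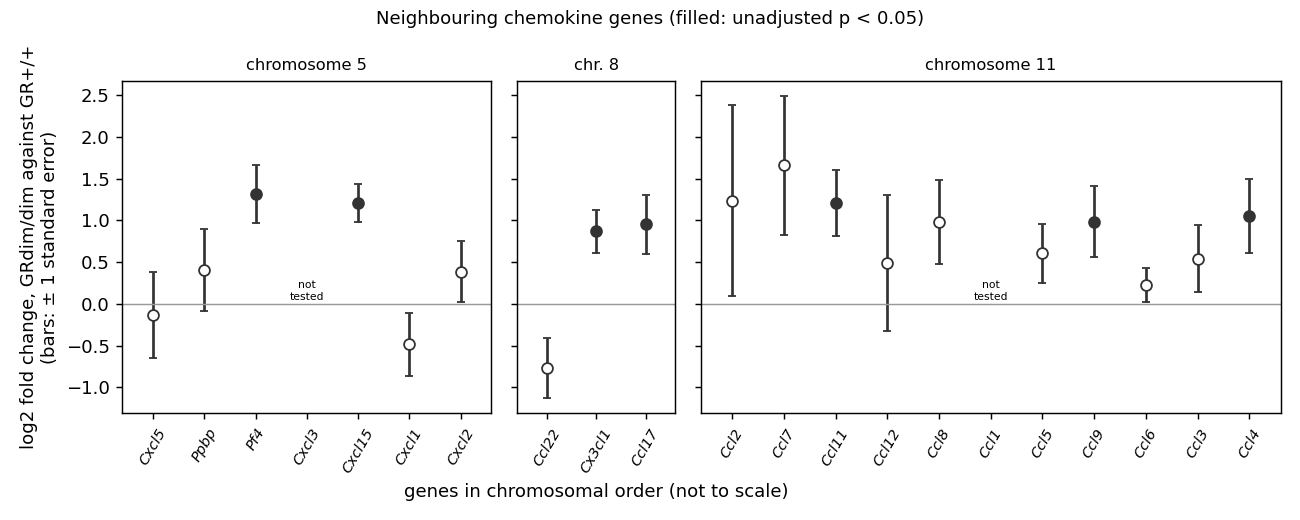
Log2 fold change of GRdim/dim against GR+/+ lungs with bars of 1 standard error (y axis) for neighboring chemokine genes on chromosomes 5, 8 and 11, in chromosomal order and not to scale; filled points have an unadjusted p under 0.05. The 10 tested genes on chromosome 11 are above 0, whereas chromosomes 5 and 8 hold genes on both sides.

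Per length, the order of levels was set by a few genes of epithelium, macrophages and stroma. Over all 6 libraries *Cxcl15* had a mean of 390.3 CPM per kb of gene, followed by *Ccl6* with 74.7, *Cxcl17* with 72.9, *Cxcl14* with 62.6, *Cxcr4* with 39.2, *Cxcl16* with 38.6 and *Cx3cl1* with 35 CPM per kb. The first place did not depend on genotype, since *Cxcl15* had 236 CPM per kb in GR+/+ and 545 CPM per kb in GRdim/dim lungs. *Cxcl17* was second in GR+/+ lungs, with 78.2 against 68.9 CPM per kb for *Ccl6*, and *Ccl6* was second in GRdim/dim lungs, with 80.6 against 67.6 CPM per kb. Both genes overlapped between genotypes, so these places are not told apart beyond the spread between libraries. Among receptors, *Cxcr4* was followed by *Ackr2* with 21.2, *Ackr3* with 19.9, *Ccrl2*, a non-signaling receptor of chemerin, with 19.8, *Ccr2* with 12.5 and *Cxcr2* with 10.5 CPM per kb. The order of *Ackr2* and *Ackr3* differed between genotypes, at 25.1 and 12.4 CPM per kb in GR+/+ and 17.4 and 27.4 CPM per kb in GRdim/dim lungs. The inducible attractants were far below *Cxcl15*, with 1.86 CPM per kb for *Cxcl1*, 1.71 for *Cxcl10* and 2.56 for *Ccl2*.

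**Figure D5:**
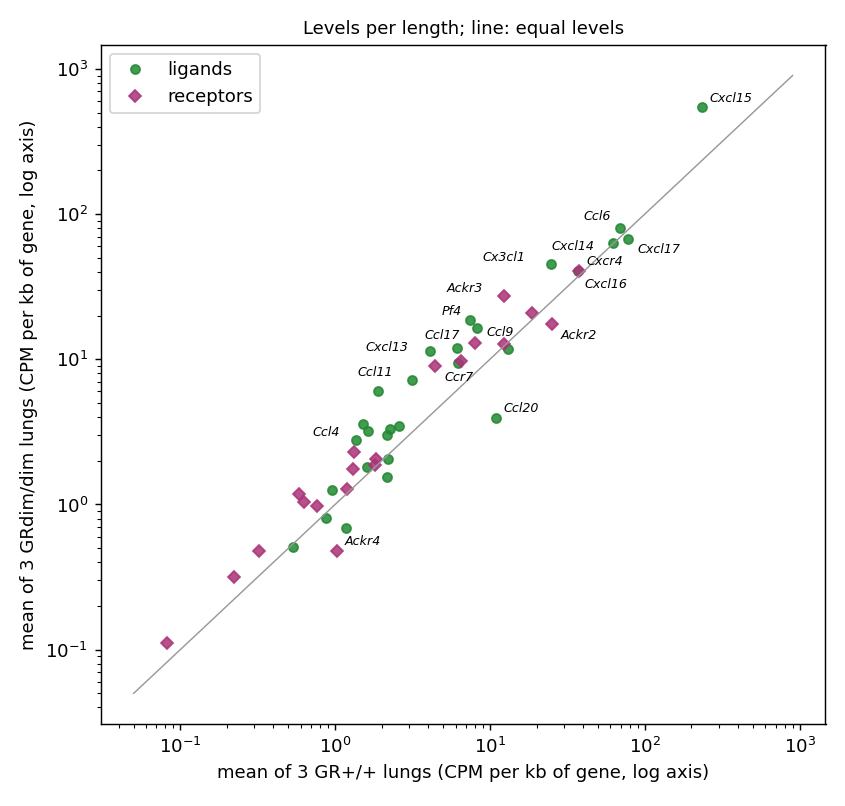
Mean level of the 48 members tested in 3 GR+/+ lungs (x axis) and 3 GRdim/dim lungs (y axis), in CPM per kb of gene on log axes, with a line of equal levels; ligands are circles and receptors diamonds. *Cxcl15* is highest in both genotypes, and *Ccl20* and *Ackr4* lie farthest below the line.

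Genes that act with chemokine receptors were read from 5 lists, and 0 of their genes were called by edgeR, against 0.169% of all genes. DESeq2 called 4, among them *Rgs2*, *Tnfaip6* and *Irf7*, against 1.70% of all genes. Of 26 signal transduction genes tested, 4 were higher (among them *Rac2*, *Vav1* and *Was*, all of leukocytes) and 1 lower (*Elmo1*) at an unadjusted p under 0.05, with a median log2 fold change of 0.28. Over all genes tested, 4.91% were higher and 4.68% lower at that threshold. Of 12 desensitization genes tested, 1 was higher. This was *Rgs2*, which shortens G protein signals, at 91.2, 88.1 and 78.8 CPM in GR+/+ and 207, 355 and 179 CPM in GRdim/dim lungs. The genotypes did not overlap, and its log2 fold change was 1.52 ± 0.25 (edgeR adjusted p = 0.0546). Of 14 genes that cut or bind chemokines, 1 was higher, *Tnfaip6*, whose product binds several chemokines, with a log2 fold change of 2.08 ± 0.52 (edgeR adjusted p = 0.223). Of 15 tested NF-kappaB factors and their inducers, *Il1b* (0.81 ± 0.22, edgeR adjusted p = 0.262) and *Il17ra* (0.45 ± 0.18) were higher, and *Il17a* had 0 counts in all libraries. The median log2 fold changes of the 4 lists other than signal transduction lay between 0.10 and 0.26, against 0.0064 for all genes tested.

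The filter left 22 members untested. Of these, 12 had 0 counts in every library, the 8 *Ccl19* and *Ccl21* genes above, *Ccl27b*, 1 of 3 *Ccl27a* entries, *Ccl26* and *Ccr1l1*. Of their 31-base windows, *Ccl26* shared 0% and *Ccr1l1* 0.0880% with other genes. The other 10 had 2 to 91 counts in all 6 libraries together, *Cxcl9*, *Ccr10*, *Cxcl3*, *Ccl28*, *Ccr8*, *Ccl24*, *Ccr3*, *Xcl1*, *Ccl1* and a second *Ccl27a* entry. Among these 10, *Ccr3* was the one with its genotypes apart, at 0.0600 to 0.127 CPM in GR+/+ and 0.208 to 0.377 CPM in GRdim/dim libraries, on 1 to 7 counts per library. On scaffolds outside the chromosomes lay 7 of the 70 genes. A further 3 genes matched by symbol but were not annotated as protein-coding and were left out, among them *Cxcl11*, with 2 counts in 1 library. The tested *Ccl27a* shared at least 57.0% of its windows with copies, its scaffold entries not being searched, and its level is uncertain for that reason.

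The remaining receptors tested overlapped between genotypes. *Xcr1*, the receptor of cross-presenting dendritic cells, had a log2 fold change of 0.74 ± 0.38 and *Cxcr6*, on tissue-resident lymphocytes, of 0.18 ± 0.38. *Ccrl2*, the CC receptor gene with the highest level per kb, stood at 48.3, 50.4 and 47.2 CPM in GR+/+ and at 54.3, 60.8 and 48.0 CPM in GRdim/dim lungs. Its log2 fold change was 0.16 ± 0.16, and the gut-homing receptor *Ccr9* had 0.39 ± 0.46. All 8 CC receptors and all 8 CXC, XC and CX3C receptors tested were above 0, with medians of 0.48 and 0.43, while the 4 atypical receptors had 2 above and 2 below 0.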

How the data were processed

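Lung RNA of 3 GRdim/dim and 3 GR+/+ mice was captured by its poly(A) tail and sequenced, 1 library per mouse. What the authors deposited are unnormalized read counts, whole numbers for each gene and library. The submitters' processing notes name mm10 and DESeq2, and the aligner, the counting tool and the use of strand are not given in the sources used here. All 70 members had identical coordinates and strand in GENCODE M21 (GRCm38), as had 53548 of the 54532 genes in the table. Genotype and replicate number came from the sample labels. Age, HS settings and sexes came from the methods of the study.

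Counts were analyzed in R 4.3.3 with edgeR 4.0.16 (TMM, filterByExpr, robust glmQLFit, glmQLFTest, Benjamini-Hochberg over 16568 genes tested). Members were called at an adjusted p under 0.05 and a log2 fold change beyond 0.5. DESeq2 1.42.0 was an alternative, as were a replicate block, RLE scaling, 2 other filters on low counts, a sex-linked expression covariate, a call without the fold change threshold, and fits without 1 library at a time. CPM used TMM-scaled totals, and CPM per kb the gene length in the table. Libraries of 1 genotype differed by 19.2 to 62.9 per gene and degree of freedom in a chi-square test of their counts, where sampling noise alone gives about 1, and were used as separate replicates. At 15687734 to 32082940 counts per library, a count of 0 allows up to 3 counts, which covers counting error only. The procedure was tested on simulated data.

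Values per library are given for members called by either tool, those with an unadjusted p under 0.05, *Ccl20* and *Ccl2*, their receptors or ligands that passed the filter, and the members highest per kb in each role. The members, roles, marker lists and pathway lists were chosen with earlier results of these data known. The 5 promoters shown were chosen in the same way. Other measurements of the study, such as lavage proteins, were not analysed here. Values of some genes are not reported here, though the counts over all members and lists include them.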

Additional observations from a re-analysis of the deposited data

How the results depend on the processing

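None of the 12 members with an unadjusted p under 0.05 changed direction under the alternatives run. With a covariate for sex-linked expression, log2 fold changes shrank for *Cxcl13* (1.06), *Pf4* (0.93), *Ccl11* (0.89) and *Ccl9* (0.69). Those of *Cx3cl1*, *Ccl17* and *Ackr4* also shrank, to 0.80, 0.87 and -0.96. They grew for *Ackr3* (1.19), *Cxcl15* (1.25), *Ccl20* (-1.63) and *Ccr7* (1.05), and *Ccl4* stayed at 1.05. *Ccl17* then missed an unadjusted p of 0.05, as *Ccl4* did in DESeq2 and with the replicate block. Over the alternatives run, 138 log2 fold changes of named genes kept their direction and side of the threshold, 16 gained a call and 1 turned. That was *Ccl2*, whose log2 fold change of 1.24 became -0.85 with a covariate for sex-linked expression (edgeR adjusted p = 0.949), and the cause was not tested. The count of members called was 0 in edgeR, 6 in DESeq2 and 9 without a filter on low counts (1.66% of all genes in that fit), where *Ackr3*, *Ccl11*, *Ccl20*, *Ccl9*, *Ccr7*, *Cx3cl1*, *Cxcl13*, *Cxcl15* and *Pf4* passed. With each library left out in turn, edgeR called 0 to 1 members (*Ccl20* without GRdim/dim replicate 1), against 0.0235 to 0.13% of all genes. In these fits 9 to 13 members were higher (all genes 3.57 to 5.53%) and 1 to 3 lower (3.31 to 5.98%) at an unadjusted p under 0.05, and 12 to 17 lay above (11.6 to 14.8%) and 3 to 5 below (9.92 to 14.8%) without overlap, of 48 to 51 tested. Smaller groups overlap less often by construction. *Ccl4*, *Ccl9*, *Ccl17* and *Ackr4* passed an unadjusted p of 0.05 in 3, 2, 3 and 3 of these 6 fits. *Ccl4* missed it without GR+/+ replicate 2, GR+/+ replicate 3 or GRdim/dim replicate 2, *Ccl9* without GR+/+ replicates 2 or 3 or GRdim/dim replicates 1 or 3, *Ccl17* without GR+/+ replicates 1 or 2 or GRdim/dim replicate 3, and *Ackr4* without GR+/+ replicate 2 or GRdim/dim replicates 1 or 3.

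The main fit did not pair libraries by replicate number. Deviations of same-numbered libraries correlated at 0.218, 0.0361 and -0.0548. Libraries of different numbers were not compared in this way, so these values cannot decide whether the numbers mark pairs. With the replicate block, 0 members were called (0.205% of all genes), and of 48 tested 13 were higher (5.16% of all genes) and 2 lower (5.23%) at an unadjusted p under 0.05. The depth limits what can be said of members read at low counts, such as *Ccl4*, *Ccr6* and *Cxcl9*, and of the *Ccl19* and *Ccl21* copies at 0.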
